A study of Mus musculus with 6 samples.

Results

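The immunoproteasome subunits were examined as 5 genes chosen by symbol in the deposited expression table, Psmb8, Psmb9, Psmb10, Psme1 and Psme2, and all 5 were found among its 18051 genes. RNA-seq had been performed on 6 mouse libraries, 3 from cells in which lentiviral Cas9 had targeted S100a8 (knockout) and 3 from cells with the vector alone (control). The labels call the cells hematopoietic stem cells and name no compound, no guide and no mouse strain or age. The study's text instead describes its lentiviral S100a8 CRISPR RNA-seq in mouse embryonic fibroblasts selected with puromycin and given glycyrrhizic acid, a licorice saponin, so the identity of the cells and the presence of the compound are unsettled, and the labels' groups were used. The labels do not state that replicates were separate cultures, so the p-values rest on a spread between libraries that may be technical alone.

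The values were FPKM, which divide a gene's fragments by its length and by the size of the library, and since they hold no read counts the sequencing depth is unknown. S100a8, the targeted gene, was listed at 0 in all 3 knockout libraries, against 3.67, 1.61 and 3.95 FPKM in control libraries. FPKM summed to 467255 to 538504 per library, and across genes the log2 values of knockout replicate 2 correlated with the other knockout libraries at 0.9862 and 0.9897, whereas the other pairs within a group reached 0.9975 to 0.9979. Hematopoietic markers gave a mixed picture against the label. Ptprc (CD45) and Kit were listed at 0 in all 6 libraries, while Cd34 averaged 32.95 FPKM in knockout and 56.4 FPKM in control libraries and Gata2 11.3 and 22.7 FPKM in knockout and control libraries. Of the 13 listed stem and progenitor markers that were measured, 7 had a mean under 1 FPKM, and all 13 summed to 59.3 to 61.7 FPKM in knockout and 101 to 104 FPKM in control libraries, whereas 10 of 12 fibroblast markers had a mean of 10 FPKM or more.

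The proteasome degrades ubiquitin-marked proteins in a barrel-shaped core, the 20S particle, in which the beta subunits Psmb5, Psmb6 and Psmb7 hold the catalytic sites. Interferons induce replacement catalytic subunits, Psmb8, Psmb9 and Psmb10, which are built into newly made cores in their place and alter which peptides are cut for display on MHC class I molecules. Psme1 and Psme2 encode the alpha and beta chains of the PA28 activator, a ring that caps the core. Leukocytes carry immunoproteasomes without stimulation, whereas fibroblasts mostly make them in response to interferon.

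The members split into a pair that fell deeply in the knockout and a trio that stayed near the control level. Psmb8 and Psmb9 fell to 9.43% and 6.59% of their control means, while Psmb10, Psme1 and Psme2 were read at 84.7%, 93.2% and 90.3% of theirs and did not pass the test. The test compared log2(FPKM + 1) with limma over the 11112 genes with a mean of at least 1 FPKM, which all 5 members met, at a Benjamini-Hochberg adjusted p threshold of 0.05. In all 2 of 5 members passed, both lower in the knockout, against a background in which 50.2% of all tested genes passed, 26.7% lower and 23.6% higher in the knockout. A count of 2 of 5 is close to that background, and the distinction of the pair lies in the size of its change. Lack of overlap between the groups was also common. It held for 2 of the 5 members and for 60.7% of all tested genes, so separation alone does not mark a gene. The median difference was -0.24 over the members and -0.02 over all tested genes.

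Psmb8 encodes the inducible chymotrypsin-like subunit (LMP7) that takes the place of Psmb5. It was read at 1.65, 2.03 and 1.32 FPKM in knockout libraries, against 17.73, 18.26 and 17.04 FPKM in control libraries. Every knockout library lay far below every control library. The difference, knockout minus control, was -2.82 on the log2 scale (SE 0.10, limma adjusted p = 3.17e-07). An exact permutation of the libraries, two-sided, reached p = 0.1, below which 3 against 3 cannot go. On the FPKM scale the control mean was 10.6 times the knockout mean.

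Psmb9 encodes the inducible subunit (LMP2) that replaces Psmb6 and lessens cleavage after acidic residues. It was the least abundant member, at 0.74, 0.51 and 0.13 FPKM in knockout libraries and 6.07, 8.59 and 6.28 FPKM in control libraries. The groups did not overlap, and all 3 knockout values were under 1 FPKM. The log2 difference was -2.46 (SE 0.18, limma adjusted p = 1.61e-05), and because the added pseudocount of 1 shrinks changes at such low levels, a pseudocount of 0.1 gave -3.83. The control mean was 15.2 times the knockout mean on the FPKM scale.

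Psmb10 encodes the inducible trypsin-like subunit (MECL-1), the counterpart of Psmb7. It was read at 30.87, 39.88 and 29.17 FPKM in knockout libraries, against 40.20, 41.90 and 35.93 FPKM in control libraries. Knockout replicate 2 lay inside the control range and the other knockout libraries below it. The log2 difference was -0.24 with a 95% interval of -0.52 to 0.03 (limma adjusted p = 0.123). Without knockout replicate 2 it was -0.38 (adjusted p = 0.00025).

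Psme1, the alpha chain of PA28, was read at 74.26, 100.54 and 77.46 FPKM in knockout libraries and at 91.33, 90.62 and 88.60 FPKM in control libraries. Knockout replicate 2 was the highest of all 6 and the other knockout libraries were the lowest. The log2 difference was -0.11, with a 95% interval of -0.37 to 0.14 (limma adjusted p = 0.426), and without knockout replicate 2 it was -0.25 (adjusted p = 0.000288).

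Psme2, the beta chain, followed the same order, at 86.61, 112.14 and 86.27 FPKM in knockout libraries and 100.40, 105.80 and 109.57 FPKM in control libraries. Its log2 difference was -0.16, with a 95% interval of -0.40 to 0.09 (limma adjusted p = 0.254), and -0.28 without knockout replicate 2 (adjusted p = 0.000228). Psme2 has a retrogene copy on chromosome 11, Psme2b, whose transcript is identical to it at 711 of 716 aligned bases (99.3%), so reads may be divided between them and both values are uncertain. Psme2b was read at 2.68, 1.48 and 1.99 FPKM in knockout libraries, against 5.72, 7.08 and 4.03 FPKM in control libraries, and fell by 1.11 on the log2 scale (limma adjusted p = 0.00222).

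**Figure D1:**
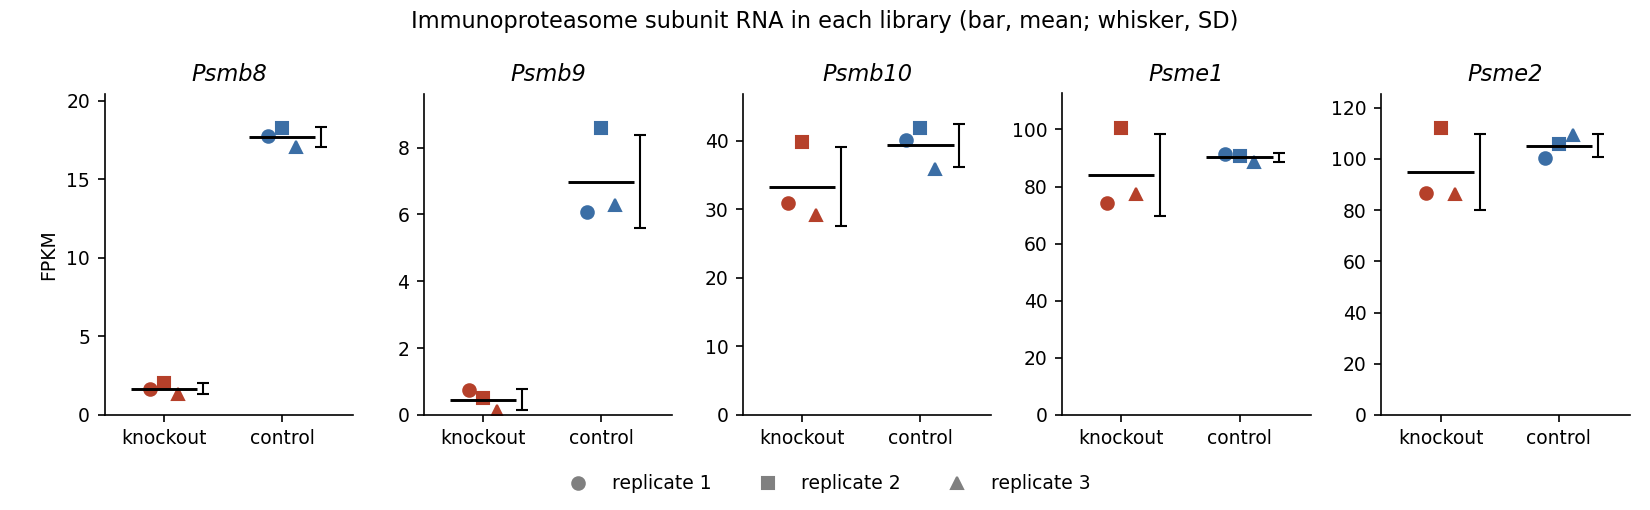
FPKM of each immunoproteasome subunit in the 3 knockout (red) and 3 control (blue) libraries, with the group mean as a bar and the SD as a whisker. Psmb8 and Psmb9 separate the groups fully, as did 60.7% of all tested genes. Knockout replicate 2 (squares) carries the highest knockout value of Psmb8, Psmb10, Psme1 and Psme2 and reaches or exceeds the control range for the last 3.

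The intervals of the trio leave room for falls as deep as -0.52, -0.37 and -0.40 on the log2 scale, and none of these reaches the intervals of Psmb8 (-3.05 to -2.58) or Psmb9 (-2.87 to -2.05). The contrast between members was taken within each library, as the log2 level of Psmb8 or Psmb9 minus that of each of the other 3. The pair and the trio were named from these same values, so the contrasts describe the split and are no separate test of it. These 6 contrasts fell in the knockout by between 2.22 and 2.70 without overlap between groups, and each had an exact two-sided permutation p = 0.1 (0.129 adjusted over 9 such contrasts), the smallest that this design allows. Psmb8 and Psmb9 did not separate from each other by this measure. Their log2 difference averaged 0.88 in knockout and 1.24 in control libraries, the groups overlapped, and the exact permutation p was 0.2. The direction of that change depends on the pseudocount of 1, since Psmb9 was under 1 FPKM in every knockout library. With a pseudocount of 0.1 the deeper fall was that of Psmb9, at -3.83, against -3.35 for Psmb8.

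The order of abundance was the same in both groups: Psme2 was highest, then Psme1, Psmb10, Psmb8 and Psmb9. Psme2 and Psme1 averaged 95.01 ± 14.8 and 84.1 ± 14.3 FPKM in knockout libraries, where their ranges overlapped, and 105 ± 4.61 and 90.2 ± 1.42 FPKM in control libraries, where they did not (SD, n = 3). All other neighbours in that order had ranges apart from each other within each group. Within each library Psme1 lay just below Psme2, with a log2 ratio of -0.18 ± 0.04 in knockout and -0.22 ± 0.08 in control libraries (SD, n = 3). The groups overlapped, and a difference in this ratio was not detected (exact permutation p = 0.6). Psmb10 made up 94.0% ± 1.23 of the summed FPKM of the 3 inducible catalytic subunits in the knockout, against 61.5% ± 1.18 in control (SD, n = 3, exact permutation p = 0.1).

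Each inducible subunit was next set against the constitutive subunit whose place it takes. Psmb5 was higher in the knockout, at 121.64, 169.37 and 132.60 FPKM against 87.66, 94.55 and 98.68 FPKM in control, a log2 difference of 0.58 (limma adjusted p = 0.00497). With the genes of each chromosome centred on their median, Psmb5 was at 0.15 and did not pass (limma adjusted p = 0.364). Psmb6 was read at 147 ± 28.4 FPKM in knockout and 132 ± 12.8 FPKM in control libraries (SD, n = 3, limma adjusted p = 0.428). Psmb7 fell by 0.25 (limma adjusted p = 0.032), a call that was lost without knockout replicate 1 or 3 or any control library (adjusted p 0.0712 to 0.116), and with the genes of each chromosome centred on their median it was at -0.07 (adjusted p = 0.534). The constitutive subunits therefore gave no common direction, and as a group their FPKM summed to 413 ± 64.5 in knockout and 374 ± 21.5 in control libraries (SD, n = 3, exact permutation p = 0.5).

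The inducible share of each pair fell for Psmb8 and Psmb9. Psmb8 made up 1.17% ± 0.177 of the summed FPKM of Psmb8 and Psmb5 in the knockout and 15.9% ± 1.08 in control (SD, n = 3). Psmb9 made up 0.319% ± 0.241 of its pair with Psmb6 in the knockout, against 5.05% ± 1.19 in control (SD, n = 3). For Psmb10 and Psmb7 the share was 21.0% ± 1.22 in knockout and 21.0% ± 1.61 in control (SD, n = 3), and the groups overlapped. On the log2 scale the inducible minus the constitutive level changed by -3.39 for Psmb8 and Psmb5 and by -2.60 for Psmb9 and Psmb6, both without overlap (exact permutation p = 0.1, 0.15 adjusted over 3 pairs), and by 0.01 for Psmb10 and Psmb7 (exact permutation p = 1). Over all 6 catalytic genes the inducible share was 7.89% ± 0.395 in knockout and 14.6% ± 1.47 in control (SD, n = 3). These are shares and levels of RNA, taken without centring by chromosome, and protein was not measured here.

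**Figure D2:**
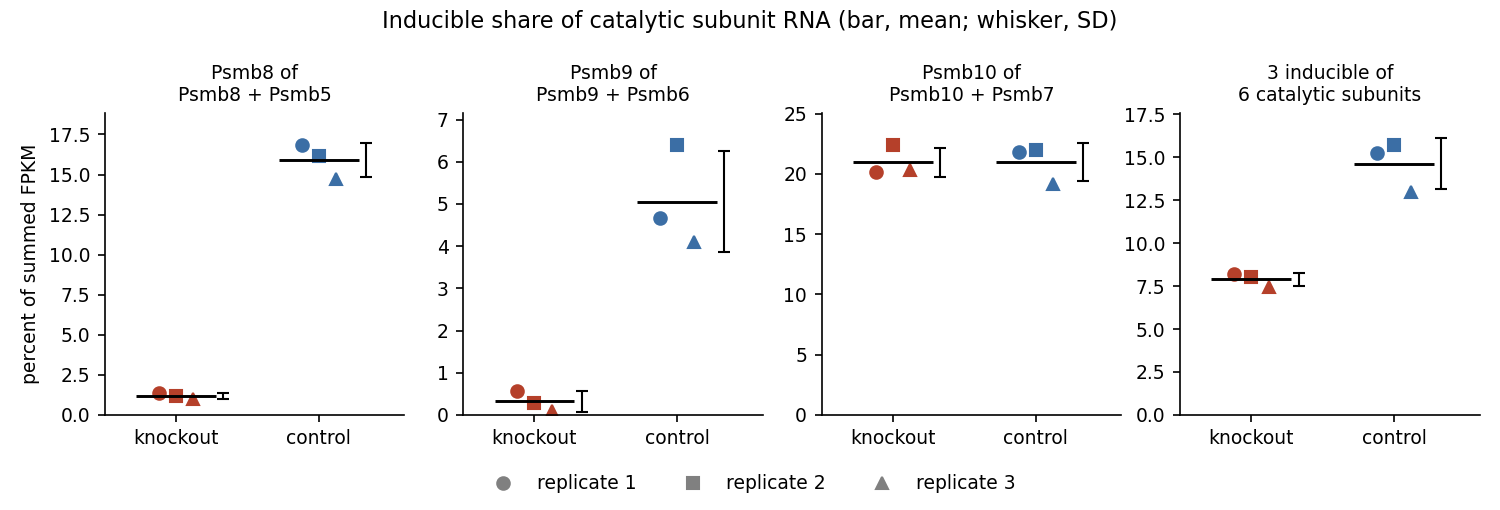
Share of the inducible subunit in the summed FPKM of each catalytic pair, and of the 3 inducible subunits in all 6 catalytic subunits, in knockout (red) and control (blue) libraries with mean and SD. The Psmb8 and Psmb9 shares fall to 1.17% and 0.319% in the knockout, against 15.9% and 5.05% in control, while the Psmb10 share is 21.0% in both groups.

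The constitutive proteasome subunits moved in both directions, by less than Psmb8 and Psmb9. Of the 32 constitutive core and 19S regulatory subunits tested, 7 were higher and 6 lower past the threshold and 19 did not pass. Their median difference was -0.04, and the differences spanned -0.65 to 0.58. Psma1, of the core's outer ring, had the deepest fall at -0.65 and Psmb5 the largest rise. Psma3, the one core subunit outside the catalytic set that rose, did so by 0.21 (limma adjusted p = 0.0406), a call lost without knockout replicate 3 or any control library (adjusted p 0.0562 to 0.146). It was also lost under the replicate block (0.0514), when low genes were kept in (0.0513) and when each chromosome's genes were centred, where Psma3 was at -0.0003 (adjusted p = 0.998). Of the 19S cap, which recognises and unfolds substrates, 5 of 18 rose and 4 fell. Psmd6 was highest at 0.52, and the deubiquitinase Psmd14 was lowest at -0.33, a call lost without control replicate 2 or 3 (adjusted p 0.0509 and 0.05). With each chromosome's genes centred, Psmd14 was at -0.15 and did not pass either (adjusted p = 0.178). None of these 32 genes approached the falls of Psmb8 and Psmb9, whose nearest interval bound was -2.05. Without knockout replicate 2, 23 of the 32 passed, against 13 with it. Over all tested genes 66.5% passed without that library and 50.2% with it.

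Among the other caps and regulators, none passed. Psme3, which forms the nuclear PA28 gamma ring, was read at 66.1 ± 1.61 FPKM in knockout and 61.0 ± 3.09 FPKM in control libraries, and Psme4 (PA200) at 21.3 ± 3.32 and 18.7 ± 0.726 FPKM in knockout and control libraries (SD, n = 3). The inhibitor Psmf1 was read at 10.98 ± 0.542 FPKM in knockout and 12.4 ± 0.747 FPKM in control libraries (SD, n = 3). Without knockout replicate 2 all of these passed, at 0.13, 0.30 and -0.18 (adjusted p 0.0305, 0.000394 and 0.0213). Of all tested genes 66.5% passed under that setting. Pomp, a chaperone needed to mature cores of both kinds and itself inducible by interferon gamma, was not lower. Its log2 difference was 0.26 (limma adjusted p = 0.0698), which passed without knockout replicate 2 at 0.14 (adjusted p = 0.0261). Of the 8 tested assembly factors 2 rose and 2 fell, with Psmg2 at 1.01 and Psmd10 at -0.69. Psmb11, the thymus-specific catalytic subunit, was read at no more than 0.2 FPKM in any library.

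The MHC class I pathway, which uses the peptides that immunoproteasomes cut, was mostly lower. Of 11 genes tested, 8 were lower past the threshold and none higher, against 26.7% lower and 23.6% higher over all tested genes. The median difference was -0.73. Tap1, a subunit of the peptide transporter into the endoplasmic reticulum, was read at 1.64, 1.78 and 2.12 FPKM in knockout libraries, against 17.42, 17.85 and 15.16 FPKM in control libraries, and fell by 2.65 (limma adjusted p = 2.71e-07). Its partner Tap2 fell by 1.52, the peptide editor Tapbp by 0.73 and the class I light chain B2m by 1.23. The general chaperones Calr and Canx were at 0.02 and -0.01 and did not pass. The depth of the falls of Psmb8 and Psmb9 was thus near that of Tap1 with the pseudocount of 1. Psmb9 minus Tap1 gave -0.98 ± 0.44 in knockout and -1.17 ± 0.20 in control libraries on the log2 scale (SD, n = 3, exact permutation p = 0.5). With a pseudocount of 0.1 Psmb9 was at -3.83 and Tap1 at -3.12, so the direction of this contrast depends on the pseudocount. With 3 libraries per group, a p of this size does not show that the depths are alike.

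**Figure D3:**
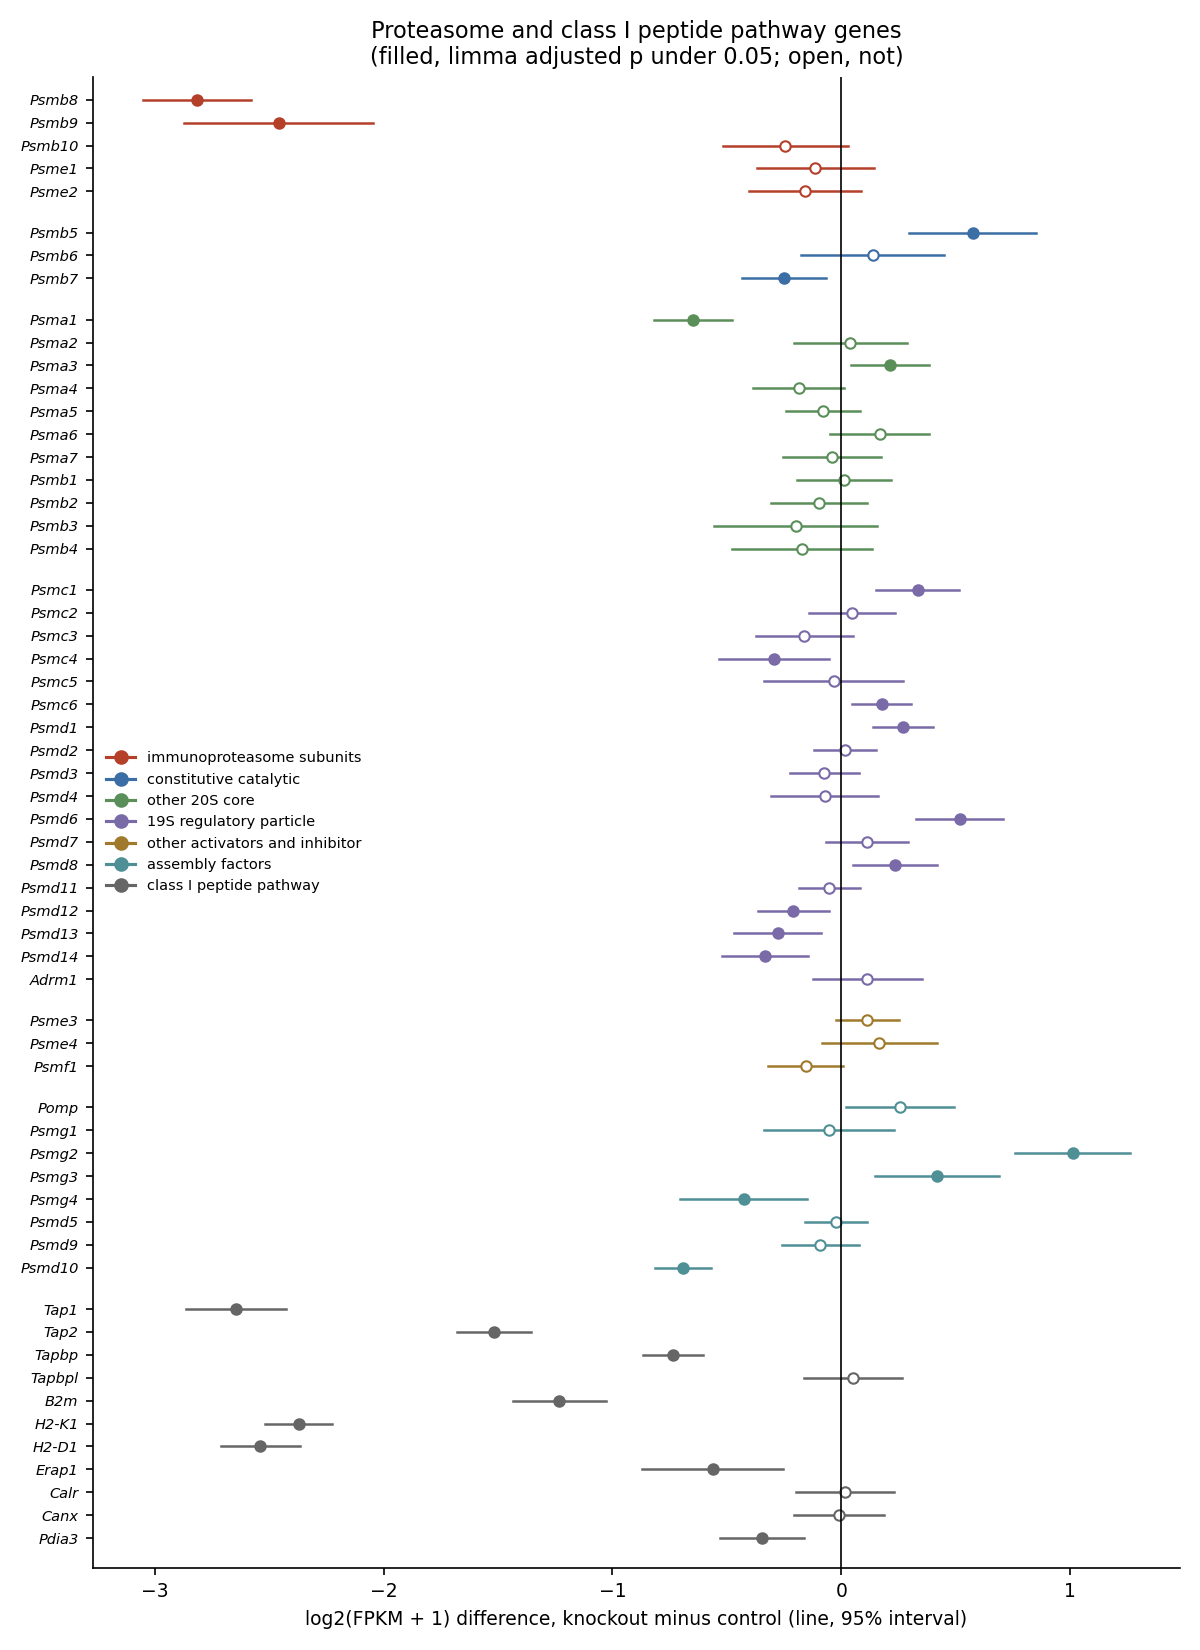
Log2(FPKM + 1) differences, knockout minus control, with 95% intervals for the immunoproteasome subunits and 54 other genes of the proteasome and the class I peptide pathway, filled where the limma adjusted p was under 0.05. Psmb8 and Psmb9 lie at -2.82 and -2.46 with Tap1 and the class I heavy chains, whereas the other members lie among the constitutive subunits, which span -0.65 to 0.58.

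Of the 17 tested genes of interferon signalling and class I regulation, 11 fell, 1 rose and 5 did not pass. Over all tested genes 26.7% fell and 23.6% rose. Nlrc5, the transactivator of class I genes, was at 0.250 ± 0.01 FPKM in knockout and 5.71 ± 0.146 FPKM in control libraries (SD, n = 3, log2 difference -2.42). Irf7 had the deepest fall, at -5.09. Irf1, a factor that binds interferon response elements, was the only one that rose, at 39.6 ± 1.65 FPKM in knockout and 31.6 ± 1.16 FPKM in control libraries (SD, n = 3, log2 difference 0.31, limma adjusted p = 0.00292). Of the ligands, Ifnb1 was listed at 0 in all 3 knockout libraries and at 0, 0.28 and 0.14 FPKM in control libraries, whereas Tnf was at 0.34, 0.33 and 0.10 FPKM in knockout libraries and listed at 0 in all 3 control libraries. Il6, the only tested one, fell (limma adjusted p = 1.03e-05).

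Since leukocytes carry these subunits constitutively, their markers were read beside the falls. Of 16 leukocyte markers 10 were in the table, 8 of them with a mean under 1 FPKM, and Ptprc was at 0 in every library. Their summed level was 3.64 to 4.96 FPKM in knockout and 4.07 to 4.76 FPKM in control libraries, with overlap. The summed fibroblast markers ranged from 7005 to 7479 FPKM in knockout and from 4601 to 4627 FPKM in control libraries, without overlap. They did not all move the same way. Of 11 tested, 9 rose and 1 fell, against 23.6% higher and 26.7% lower over all tested genes. Dcn fell from a mean of 67.2 FPKM in control to 4.73 FPKM in knockout libraries (log2 difference -3.57, limma adjusted p = 1.35e-08). Thy1 had the largest rise, at 2.29, and was listed at 0 in all control libraries. The part of these markers in the members' differences was not tested. In such bulk libraries, fewer cells carrying a transcript and less of it per cell cannot be told apart.

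The falls and the near-level members occupied different places in the genome (RefSeq coordinates of GRCm38.p6, the build that mm10 names). Psmb9 and Psmb8 lie on chromosome 17 at 34182030 to 34187330 and 34198195 to 34201454, within the class II region of the MHC, and alternate with Tap1 (34187556 to 34197225) and Tap2 (34204479 to 34216321). These 4 adjacent genes all fell, at -2.46, -2.65, -2.82 and -1.52 in chromosomal order from Psmb9. Of the 9 other tested genes shown around them none fell, but farther out on the same side as Psmb9 the class I heavy chain gene H2-K1 fell by 2.37 and Tapbp by 0.73. Of the genes nearby, H2-DMa, a class II peptide exchange subunit, rose by 0.93, although its annotated span overlaps Brd2 and reads may be shared. Over the 61 other tested genes within 1 Mb to each side of the pair, 13 rose and 11 fell, with a median difference of 0.03. The shares over all tested genes were 23.6% higher and 26.7% lower.

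Psme1 and Psme2 lie on chromosome 14 at 55578494 to 55581527 and 55587440 to 55591101, on opposite strands with Emc9 between them. Around them the tested genes were mostly higher. Within 1 Mb to each side 23 of 33 other tested genes rose and 4 fell, against 23.6% higher and 26.7% lower over all tested genes. Their median difference was 0.41, and the median over all 368 tested genes of chromosome 14 was also 0.41. With the genes of each chromosome centred on their median, Psme1 and Psme2 were lower by 0.54 and 0.58 and passed (adjusted p = 0.00522 and 0.00291), Psmb10 on chromosome 8 (105935728 to 105938392) passed at -0.36 (adjusted p = 0.044), and 40.6% of all tested genes passed. The rise of Psmb5, 969 kb from Psme2 on the same chromosome, was 0.15 after centring and did not pass (adjusted p = 0.364), and that of Psmd6, also on chromosome 14, was 0.09 (adjusted p = 0.426). Irf9, an interferon regulatory factor that lies beyond Psme2 with only Rnf31 between them, fell by 1.89. Psme2 minus Irf9 was 3.48 ± 0.20 in knockout and 1.75 ± 0.07 in control libraries on the log2 scale (SD, n = 3, exact permutation p = 0.1).

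**Figure D4:**
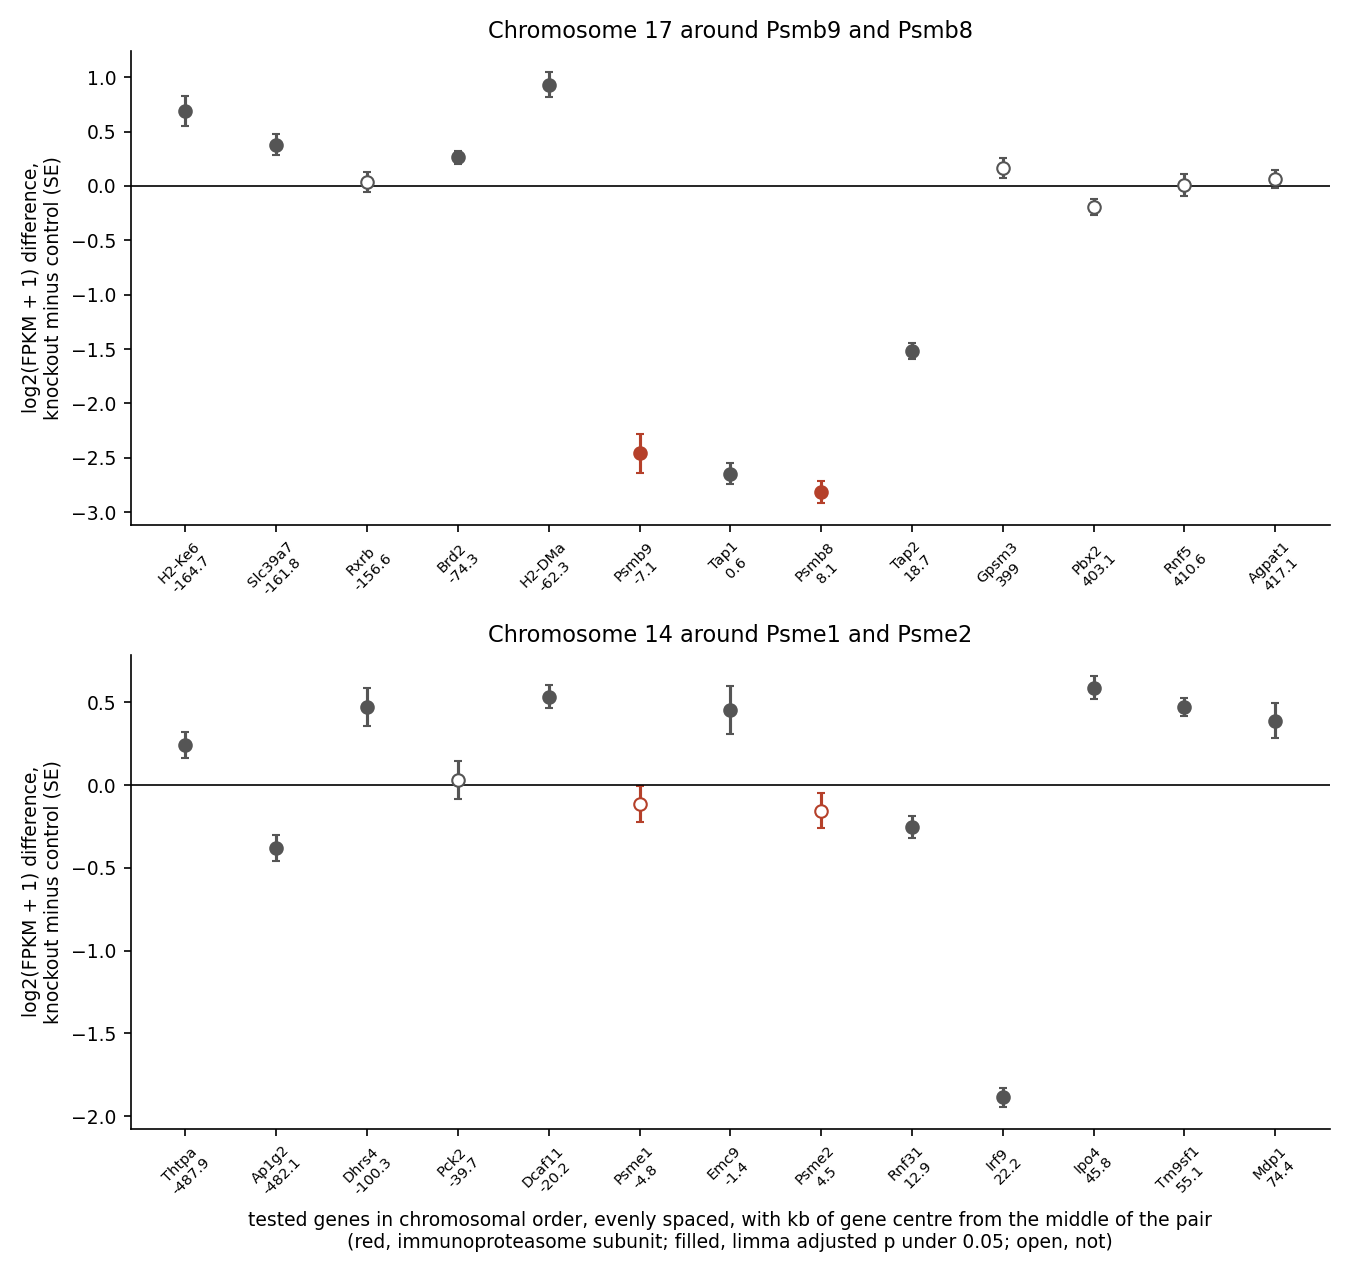
Log2(FPKM + 1) differences with SE for tested genes in chromosomal order around Psmb9 and Psmb8 (top) and Psme1 and Psme2 (bottom), labelled with the distance in kb of each gene's centre from the middle of the pair and filled where the limma adjusted p was under 0.05. The 4 adjacent genes from Psmb9 to Tap2 lie between -2.82 and -1.52, and around Psme1 and Psme2 most neighbours were higher while Irf9 lies at -1.89.

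The promoter windows of the members were read from RefSeq (250 bases before to 50 after each start site, GRCm38.p6), and all 5 members had at least 1 window, Psme2 having 2. Psmb9 and Tap1 start back to back on opposite strands with 225 bases between their start sites. The motifs searched on both strands were GAAA, any 2 bases and GAAA again, the core of interferon-stimulated response elements bound by IRF factors; TTCNNNGAA, the core of gamma-activated sites, which respond to interferon gamma; and GGGCGG, the GC box. No match of one motif overlapped a match of another in the members' windows. They occur in 3.44%, 8.30% and 35.7% of all 32851 promoter windows. The stretches below are shown because they hold the only interferon-type matches among the members and the GC box between Psmb9 and Tap1, with the motif in capitals.

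Psmb8, gamma-activated site type, 97 bases before the start, chr17:34198088-34198117, plus strand: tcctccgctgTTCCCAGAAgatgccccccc

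Psme1, interferon-stimulated element type on the minus strand, at base 10 of the transcript, chr14:55578493-55578522, printed on the plus strand: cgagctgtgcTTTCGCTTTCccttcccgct

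Psmb9, GC box, 55 bases before the start, chr17:34187368-34187397, minus strand: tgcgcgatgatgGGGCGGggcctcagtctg

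The Psmb8 window held the only gamma-activated type match among the members and the Psme1 window the only IRF-type match, whereas the Psmb9, Psmb10 and Psme2 windows held neither. The Psmb9 GC box lies in the stretch that its window shares with that of Tap1. GC boxes were not particular to it among the members: the Psme1 window held 1 and each Psme2 window 2, which are not printed here. Psmb9 fell with no interferon-type match in its window. Psme1, which held one, did not pass in the main test but did with chromosomes centred or without knockout replicate 2. Exact runs of letters in these windows leave out variant sites and sites farther off, so a link between motifs and the split was not tested. A match is a run of letters in this window and says nothing of what is bound there.

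Besides the centring by chromosome, leaving out knockout replicate 2 changed the calls of Psmb10, Psme1 and Psme2. In that library all 5 members were higher than the mean of the other knockout libraries, by a median of 0.37 on the log2 scale, as were 31 of the 32 constitutive subunits, by a median of 0.25, against -0.004 over all tested genes. The deviation of that library followed transcript length, with medians of 0.21 in the shortest of 5 equal length classes of genes and -0.26 in the longest, and the members' transcripts are short (529 to 1311 bases by the median of their GENCODE M21 coding transcripts). Whether length accounts for the members' deviation in that library was not tested. With each library adjusted for transcript length, an alternative added after seeing the data, the differences were -0.24, -0.12 and -0.17 for Psmb10, Psme1 and Psme2 (limma adjusted p = 0.0451, 0.187 and 0.0569). Without knockout replicate 2 all 5 members passed, all lower in the knockout, against 66.5% of all tested genes under the same setting. Psmb8 and Psmb9 were at -2.91 and -2.49 without it.

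**Figure D5:**
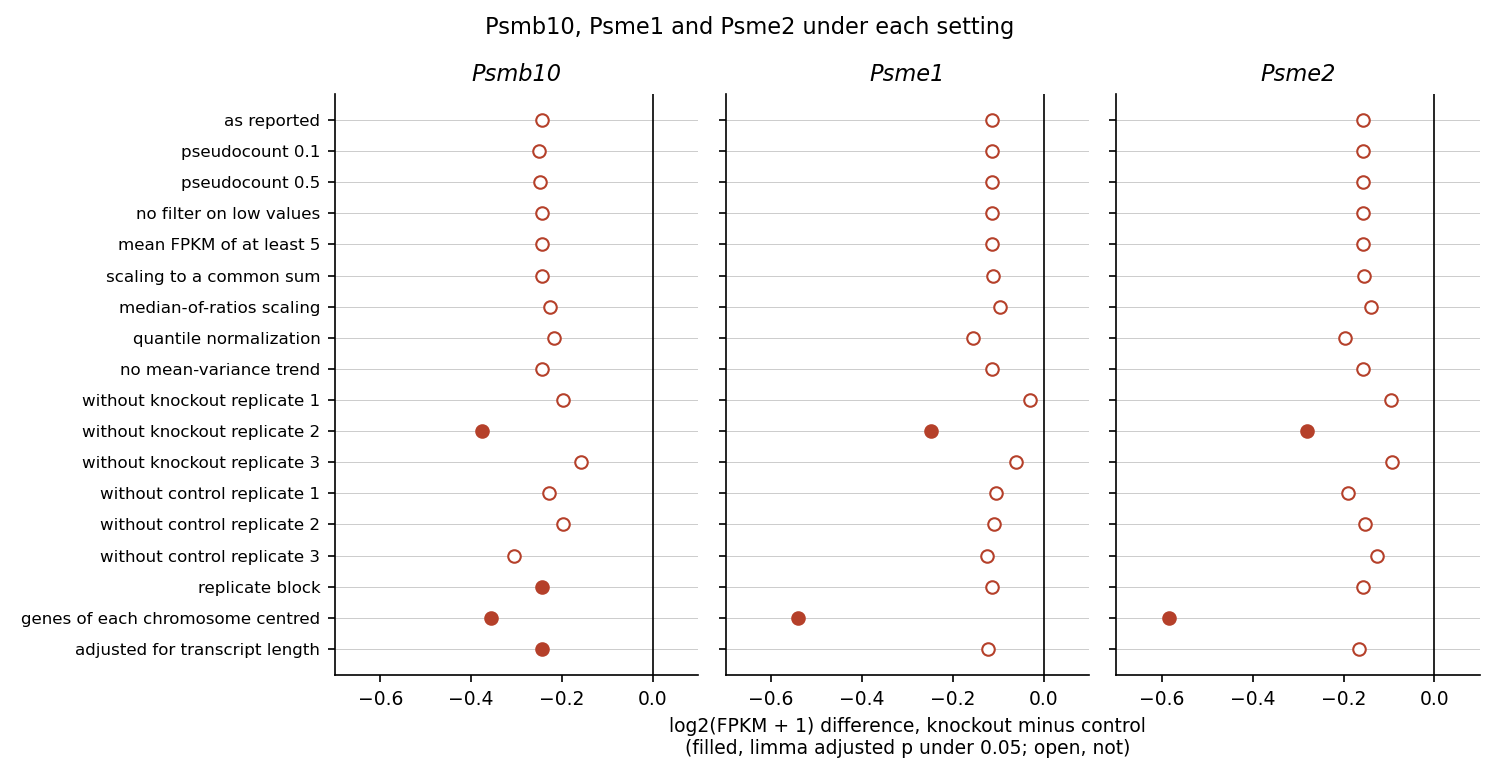
Log2(FPKM + 1) difference of Psmb10, Psme1 and Psme2 as reported and under 17 alternative settings, filled where the limma adjusted p was under 0.05. Every value lies below 0, from -0.031 to -0.58, and all 3 genes pass only without knockout replicate 2 and with the genes of each chromosome centred.

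The 10 genes nearest to the mean profile of the 5 members were found by the Euclidean distance of log2(FPKM + 1), centred per gene, over the 6 libraries. They were Acy3, Tmem140, Rbpms2, Trib3, Pgk1, Sqor, Higd1a, Pgm1, Nsg1 and Gla, at distances of 0.07 to 0.22. Their differences ran from -1.28 to -1.07, a depth that no member itself showed, since the members lay at -2.82 and -2.46 or between -0.24 and -0.11. Between members the distance was 0.63 for Psmb8 and Psmb9 and 0.14 to 0.26 among Psmb10, Psme1 and Psme2, against 2.76 to 3.32 across these sets.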

How the data were processed

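RNA-seq was measured in 3 knockout and 3 control libraries, grouped by their treatment labels. The authors removed adapter, poly-N and low-quality reads, mapped with HISAT2 2.0.4 and Bowtie2 2.2.5 to mm10 and computed expression with RSEM; the annotation and the use of strand are not given in the sources used here. The deposited values were FPKM with 2 decimals for 18051 genes; the authors' mean FPKM columns were not used. Depth is unknown, so no counting interval was given.

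Values were taken to the log2(FPKM + 1) scale. The 11112 genes that averaged at least 1 FPKM were compared with limma 3.58.1 (R 4.3.3; mean-variance trend, Benjamini-Hochberg adjustment, threshold 0.05). The procedure was run on simulated data with known changes in a small part of the genes and independent noise. That setting lacks the many changed genes of these data and the length-dependent deviation of knockout replicate 2, so it does not cover them. Single values were compared with exact two-sided permutation tests. Chromosomes came from RefSeq (17994 genes matched) and transcript lengths from GENCODE M21 (17274 genes matched). The alternatives were pseudocounts of 0.1 and 0.5, no filter, a mean of at least 5 FPKM, 3 scalings, no trend, each library left out, the replicate number as a block, and centring by chromosome; adjustment for transcript length was added after seeing the data.

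The members and lists were chosen with earlier results of these data known. The naming rule covered the members, their constitutive counterparts, listed pathway genes, the largest rise and fall of each list and the 10 nearest profiles; Psme2b, Irf9, H2-DMa, H2-K1, Psmb11, Ifnb1, Tnf, Calr, Canx, the named markers and the genes nearest to each member were chosen after their values were seen, as were the contrasts between members and with Tap1 and Irf9. Some listed genes are not reported here.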

Additional observations from a re-analysis of the deposited data

How the results depend on the processing

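Psmb8 and Psmb9 stayed past the threshold with the same direction under every alternative in which they were tested; Psmb9 was not tested at a mean of at least 5 FPKM, which left 1 member past the threshold. Leaving out each library gave 2 to 5 members past the threshold, with differences of -2.91 to -2.72 for Psmb8, -2.60 to -2.29 for Psmb9, -0.38 to -0.16 for Psmb10, -0.25 to -0.031 for Psme1 and -0.28 to -0.093 for Psme2. With the genes of each chromosome centred 5 members passed, Psmb10 at -0.36, Psme1 at -0.54 and Psme2 at -0.58. Psmb10 also passed with the replicate block at -0.24 (adjusted p 0.0373) and with the adjustment for transcript length at -0.24. The deviations of libraries with the same replicate number correlated at 0.33, 0.10 and -0.21, so the numbers were not taken to pair the libraries; 5527 genes passed with the replicate block, against 5580 without it.

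Over all alternatives 4204 to 7403 genes passed, and leaving out each library gave 4282 to 7403. Psmb8 minus Psmb5 was -3.93 and -3.66 and Psmb9 minus Psmb6 was -3.97 and -3.14 with pseudocounts of 0.1 and 0.5, the shift that a smaller pseudocount gives at low levels. Of the genes outside the members, Psmb6 was at -0.015 without knockout replicate 2 and ran up to 0.23 without another library, and on centring by chromosome Psmf1 was at 0.025 and Psma3 at -0.0003; the cause was not tested. Of the 32 constitutive subunits 5 to 23 passed when each library was left out and 6 passed on centring by chromosome, against 13. Over all tested genes 40.6% passed on centring, against 50.2%. What depth limits cannot be said from FPKM alone.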

Other observations

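The genes nearest to each member by the same distance were found after the values had been seen and are given as a description. Psmb8 lay nearest to Egln3, an oxygen-sensing prolyl hydroxylase, at 0.16, then to the cathepsin Ctsk at 0.21 and Ly6c1 at 0.26. Psmb9 lay nearest to S100a1 at 0.31, Mgarp at 0.38 and the interferon-inducible GTPase Tgtp1 at 0.42. Psme1 lay nearest to Ube2v1, a ubiquitin-conjugating enzyme variant, at 0.04, and Psme2 to Mtx1 at 0.03, the spliceosome gene Snrpb at 0.04 and the secreted factor Manf at 0.04. Profiles over 6 libraries in 2 groups are set mostly by the size of the group difference, and many genes lie close together by this measure.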
